A study of Mus musculus with 12 samples.

Results

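The Hox genes of the mouse were taken as the protein-coding genes whose symbol is Hox followed by a cluster letter from a to d and a number, and 39 genes of the 55450 in the count table met this rule. Of them, 11 belong to the HoxA cluster, 10 to HoxB, 9 to HoxC and 9 to HoxD. RNA was labelled as that of the tibialis anterior (TA), the shin muscle, which lifts the foot, and the fetal libraries also held counts of the forelimb gene *Tbx5*, described further on. The donors were wild-type mice of the 129Pas background, either fetuses of embryonic age E18.5 or young mice aged 2 weeks (wks) or 7 wks. Each age had 4 mice, each with a library of its own, and the labels name no engineered allele and no treatment. The 12 libraries held 63018968 to 123449246 counts, of which the Hox genes took 7026 to 21408 per library, or 0.00985% to 0.0192%. No library was left out.

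Hox genes encode homeodomain transcription factors that give cells of the embryo their position along the body axis and along the limb. Within a cluster the genes lie in the order in which they act from head to tail, and genes with the same number in different clusters are paralogues. In the limb, the genes at the posterior end of HoxA and HoxD pattern the upper arm or thigh, the lower limb and the digits in turn, and posterior HoxC genes are known for their use in the hindlimb. Adult connective tissue and muscle keep a position-dependent Hox pattern, and *Hoxc10* is a known mark of hindlimb muscle.

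On GRCm38 the HoxA cluster lies on the minus strand of chromosome 6 from 52155367 to 52260880, and HoxB on the plus strand of chromosome 11 from 96194316 to 96368254. HoxC lies on the plus strand of chromosome 15 from 102921131 to 103036856, and HoxD on the plus strand of chromosome 2 from 74668225 to 74765142. The RefSeq promoter table of GRCm38.p6 held 24 transcription starts of 22 of the 39 genes, each with 250 bases before and 50 bases after the start. Promoters of the position 10 and position 13 genes of HoxA and HoxD are printed, because the fetal and later libraries do not overlap for *Hoxd10* and *Hoxd13*, and *Hoxa10* and *Hoxa13* are their HoxA paralogues. CG dinucleotides are in capitals, and *Hoxa10* has a pair of annotated starts.
*Hoxa10*, chr6:52240805-52241104, minus strand: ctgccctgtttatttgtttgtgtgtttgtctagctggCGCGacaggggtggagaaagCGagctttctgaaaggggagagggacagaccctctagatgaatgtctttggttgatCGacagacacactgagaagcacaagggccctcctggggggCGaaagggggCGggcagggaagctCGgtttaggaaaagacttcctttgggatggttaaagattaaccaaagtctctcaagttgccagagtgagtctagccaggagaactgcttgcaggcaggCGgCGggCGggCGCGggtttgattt
*Hoxa10*, chr6:52234890-52235189, minus strand: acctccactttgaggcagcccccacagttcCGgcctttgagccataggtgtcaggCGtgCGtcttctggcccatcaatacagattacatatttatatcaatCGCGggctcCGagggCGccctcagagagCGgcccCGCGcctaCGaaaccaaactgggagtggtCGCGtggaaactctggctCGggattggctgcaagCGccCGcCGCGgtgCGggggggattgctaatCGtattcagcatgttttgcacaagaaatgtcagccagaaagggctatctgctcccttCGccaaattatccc
*Hoxd10*, chr2:74691641-74691940, plus strand: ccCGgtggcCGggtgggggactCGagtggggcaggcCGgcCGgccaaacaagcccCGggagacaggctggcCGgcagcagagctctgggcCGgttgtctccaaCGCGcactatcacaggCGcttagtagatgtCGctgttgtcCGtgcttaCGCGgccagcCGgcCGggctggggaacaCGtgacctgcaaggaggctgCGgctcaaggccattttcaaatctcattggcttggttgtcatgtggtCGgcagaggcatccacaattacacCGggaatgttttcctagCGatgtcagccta
*Hoxa13*, chr6:52260831-52261130, minus strand: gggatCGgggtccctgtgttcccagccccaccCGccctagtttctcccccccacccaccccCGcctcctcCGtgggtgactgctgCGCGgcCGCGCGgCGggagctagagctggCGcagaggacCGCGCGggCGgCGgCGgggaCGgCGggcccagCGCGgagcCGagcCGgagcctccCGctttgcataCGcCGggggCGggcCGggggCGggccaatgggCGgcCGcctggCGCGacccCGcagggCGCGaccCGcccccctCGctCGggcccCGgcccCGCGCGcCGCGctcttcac
*Hoxd13*, chr2:74667975-74668274, plus strand: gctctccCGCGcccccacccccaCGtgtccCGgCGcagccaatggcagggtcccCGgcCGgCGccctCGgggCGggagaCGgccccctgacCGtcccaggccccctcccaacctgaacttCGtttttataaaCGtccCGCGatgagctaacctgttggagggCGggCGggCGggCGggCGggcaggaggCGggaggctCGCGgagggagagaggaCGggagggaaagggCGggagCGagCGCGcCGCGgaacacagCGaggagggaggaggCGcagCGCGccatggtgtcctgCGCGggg
The printed promoters held 12 and 21 CG dinucleotides at the 2 starts of *Hoxa10*, 22 at *Hoxd10*, 45 at *Hoxa13* and 37 at *Hoxd13*. The median was 14.5 over the 24 Hox starts and 7 over the 32851 starts of the whole table. Searched on both strands, the CCAAT box (CCAAT) was found at 15 of the 24 Hox starts and at 37.4% of all starts, and the TATA box (TATAAA) at 4 of the 24 and at 13.6% of all. *Hoxd10* and *Hoxa13* both held a CCAAT box and no TATA box. The GC box (GGGCGG) was found at 10 of the 24 starts and at 35.7% of all.

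The clusters also hold miRNA genes. The mature miRNAs are printed from RefSeq with the seed, bases 2 to 8, in capitals, since the genes around them are described further on.
mmu-miR-196a-5p: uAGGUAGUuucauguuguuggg
mmu-miR-196b-5p: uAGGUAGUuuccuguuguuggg
mmu-miR-10a-5p: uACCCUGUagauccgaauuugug
mmu-miR-10b-5p: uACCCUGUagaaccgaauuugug
miR-196a and miR-196b share the seed AGGUAGU, and miR-10a and miR-10b share the seed ACCCUGU. miR-196a is encoded in both HoxB and HoxC, miR-196b in HoxA, miR-10a in HoxB and miR-10b in HoxD. Libraries of poly(A) RNA do not measure mature miRNAs.

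Of the 39 Hox genes, 32 had enough counts to be tested. The 7 others were *Hoxb1*, *Hoxb13*, *Hoxc12*, *Hoxc13*, *Hoxd1*, *Hoxd12* and *Hoxd13*. *Hoxc12* had 0 counts in the 12 libraries, and *Hoxb1* and *Hoxb13* had 3 counts each, all at E18.5. Levels of different genes were compared as CPM, counts scaled by TMM to a common library size, divided by the length of the gene's joined exons in kilobases. At E18.5, *Hoxd8* was the highest Hox gene with a mean of 6.32 ± 1.71 CPM per kilobase (SD, n = 4), ahead of *Hoxa10* with 3.23 ± 1.53, and their libraries overlapped. At 2 wks *Hoxc10* stood first with 17.3 ± 4.08 CPM per kilobase, and at 7 wks with 28.0 ± 6.14, at both ages above every library of the next gene. That next gene was *Hoxa10* both times, with 5.31 ± 0.732 and 5.77 ± 0.470 CPM per kilobase. *Hoxc11* and *Hoxa7* followed at 3.87 ± 0.378 and 3.79 ± 0.446 at 2 wks, and did not differ beyond their spread. At E18.5, each of the 15 highest genes overlapped the gene next to it in the order.

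**Figure D1:**
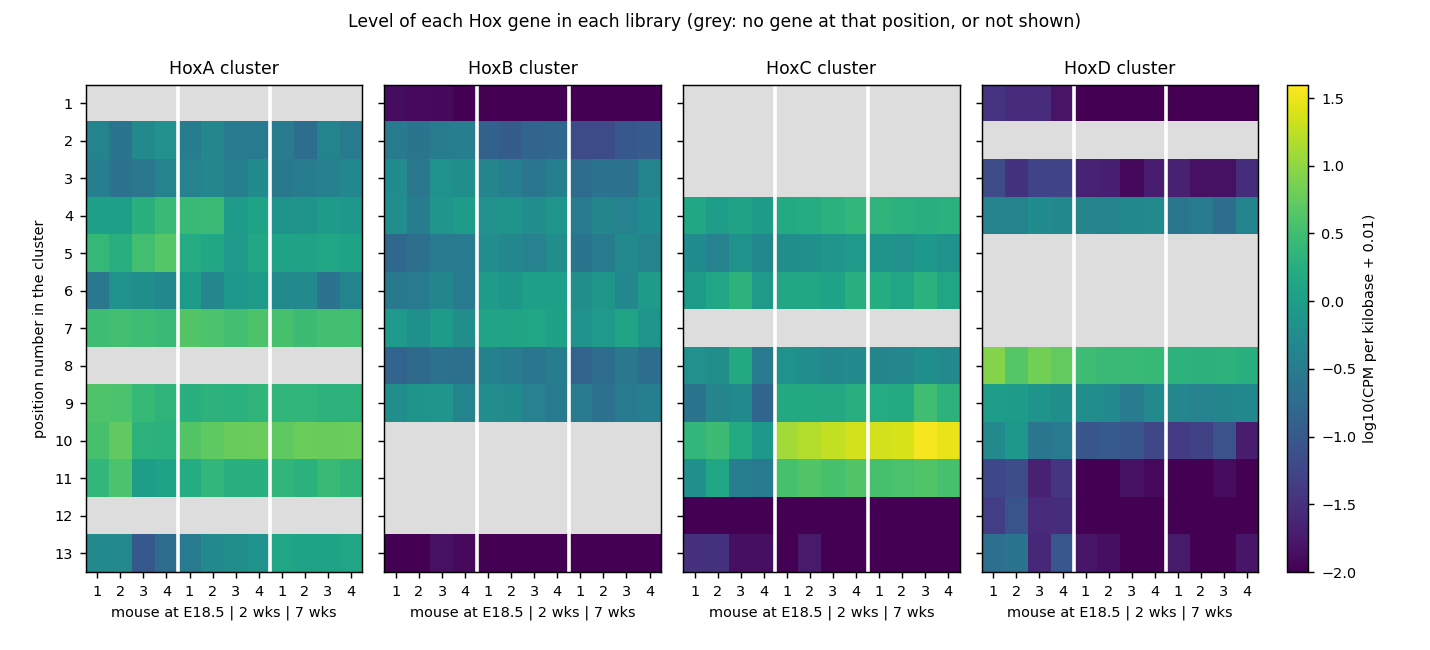
Level of Hox genes in the 12 libraries, as log10 of CPM per kilobase plus 0.01, with 1 panel per cluster, position number down, mice across and grey where there is no gene or none is shown. *Hoxc10*, the highest gene after birth, brightens from a mean of 1.93 CPM per kilobase at E18.5 to 28.0 at 7 wks, and HoxD genes at positions 10 to 13 darken.

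The first question was how Hox transcripts changed from late fetal life to 2 wks of age. At 2 wks, 10 Hox genes were higher and 9 were lower than at E18.5 among the 32 tested (edgeR's quasi-likelihood test, Benjamini-Hochberg adjusted p under 0.05 over 19276 genes). Of all genes tested, 65.7% were called, 31.5% higher and 34.2% lower, so the 59.4% of Hox genes called was near the background. Libraries of the 2 ages did not overlap for 8 genes that were higher and 8 that were lower, 25.0% each, beside 28.9% and 32.4% of all genes tested. The direction differed by cluster. HoxC had 4 genes higher and 0 lower of 7 tested, HoxB had 4 higher and 1 lower of 8, HoxA had 2 higher and 3 lower of 11, and HoxD had 0 higher and 5 lower of 6. The median log2 fold change was 0.09 over the 32 genes, 0.75 over HoxC and -1.76 over HoxD, beside -0.09 over all genes tested.

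The largest rises were those of the posterior HoxC genes. *Hoxc10* (ENSMUSG00000022484, chr15:102966796-102971898 on GRCm38) was at 4.95, 5.91, 3.28 and 1.69 CPM in the 4 mice at E18.5, 26.2, 31.8, 38.1 and 45.6 CPM after 2 wks, and 45.7, 49.3, 73.4 and 61.2 CPM after 7 wks. No library of an age overlapped one of another age. It rose by a log2 fold change of 3.16 ± 0.33 (SE) to 2 wks, or 8.96-fold (edgeR, adjusted p = 3.36e-06). *Hoxc11* was at 1.28, 2.80, 0.673 and 0.583 CPM in the fetal mice, 7.08, 8.51, 7.25 and 8.45 CPM at 2 wks, then 7.14, 7.51, 8.33 and 7.26 CPM. The fetal mice all lay below the older ones, and the values at 2 wks and 7 wks overlapped. *Hoxc11* rose by 2.55 ± 0.40 on the log2 scale (edgeR, adjusted p = 7.91e-05). *Hoxc9* was at 0.637, 1.18, 1.39 and 0.394 CPM in the fetal mice, 4.21, 4.18, 4.13 and 4.92 CPM at 2 wks, then 4.47, 4.42, 8.73 and 5.84 CPM. It rose by 2.27 ± 0.35 (edgeR, adjusted p = 8.38e-05), again without overlap between the fetal and later libraries. These 3 rises passed the test under each of the other scalings and with any library left out, when *Hoxc10* ranged from 2.91 to 3.43.

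The central HoxC genes changed less. *Hoxc4*, at the anterior end of HoxC, rose by 0.75 ± 0.19 (edgeR, adjusted p = 0.00295), while *Hoxc5*, *Hoxc6* and *Hoxc8* had log2 fold changes of 0.41, 0.14 and -0.48 and did not pass the test. Read counts of *Hoxc10* and *Hoxc5* cannot be fully separated, since 8.11% of the exon length of *Hoxc10* lies in exons of *Hoxc5* on the same strand. *Hoxc5* did not pass the test in any comparison.

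Posterior and anterior HoxD genes fell. *Hoxd10* (ENSMUSG00000050368, chr2:74684273-74695106 on GRCm38) was at 0.915, 1.53, 0.463 and 0.568 CPM in the fetal mice, 0.151, 0.175, 0.151 and 0.0914 CPM at 2 wks, then 0.0602, 0.0776, 0.138 and 0.0165 CPM. Every fetal mouse lay above every older one. The fall to 2 wks was -2.60 ± 0.47 on the log2 scale, or 6.06-fold (edgeR, adjusted p = 0.000288). *Hoxd8*, the most abundant HoxD gene, was at 24.8, 13.3, 20.2 and 16.1 CPM in the fetal mice, 8.82, 8.02, 7.71 and 7.63 CPM at 2 wks, then 6.32, 5.99, 6.29 and 5.56 CPM. The ages did not overlap, and the change to 2 wks was -1.21 ± 0.18 (edgeR, adjusted p = 5.61e-05). *Hoxd3* and *Hoxd9* also fell, with log2 fold changes of -2.31 ± 0.51 and -0.75 ± 0.25 (edgeR, adjusted p = 0.00128 and 0.0183). *Hoxd4* did not pass the test, with -0.02 ± 0.25. Exons of *Hoxd3* and *Hoxd4* overlap those of *Gm28230*, an annotated read-through gene, over 32.5% and 38.9% of their length, so their counts are uncertain.

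The genes at the far posterior end of HoxD were close to absent after birth. *Hoxd13* had 71, 100, 8 and 42 counts in the fetal mice, 221 in all, and 2 counts over the 4 mice at each later age. In CPM it was 46.8-fold lower at 2 wks, with an exact 95% counting interval of 12.8 to 389. *Hoxd12* had 65 counts at E18.5 and 0 at both later ages, at least 9.18-fold lower at 2 wks and at least 7.20-fold lower at 7 wks when 3 counts over the 4 libraries were taken as the floor. *Hoxd11* had 43, 63, 14 and 31 counts in the fetal mice, 3 in all after 2 wks and 1 after 7 wks, a ratio of 21.3 between E18.5 and 2 wks with a counting interval of 7.16 to 105. *Hoxd11* had enough counts for the test and fell (edgeR, adjusted p = 0.000405). In HoxC, *Hoxc13* likewise had 22 counts over the fetal libraries, 2 at 2 wks and 0 at 7 wks, 4.66-fold lower at 2 wks with a counting interval of 1.15 to 40.9. Intervals and floors cover counting error only.

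HoxB split by position. The central genes *Hoxb5*, *Hoxb6*, *Hoxb7* and *Hoxb8* rose by 1.02 ± 0.30, 1.52 ± 0.26, 0.70 ± 0.24 and 0.82 ± 0.27 on the log2 scale (edgeR, adjusted p = 0.00837, 0.000152, 0.0199 and 0.0167). *Hoxb6* was at 0.644, 0.712, 1.03 and 0.713 CPM at E18.5 and at 2.15, 1.85, 2.44 and 2.48 CPM at 2 wks, without overlap. *Hoxb2*, at the anterior end of the cluster, fell by 1.19 ± 0.26 (edgeR, adjusted p = 0.0012). *Hoxb3*, *Hoxb4* and *Hoxb9* did not pass the test. Of the exon length of *Hoxb6*, 30.8% lies opposite *Hoxb5os*, which had 37 counts in the 12 libraries, while 29.7% of *Hoxb2* and 51.5% of *Hoxb3* lie opposite the more abundant *Hoxb3os*.

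In HoxA, 2 genes rose and 3 fell. *Hoxa10*, which patterns the thigh, was at 11.9, 17.3, 6.96 and 6.53 CPM at E18.5 and at 14.4, 16.8, 19.2 and 19.7 CPM at 2 wks, so that fetal mouse 2 lay among the older mice. It rose by 0.71 ± 0.26 (edgeR, adjusted p = 0.0261), and *Hoxa7* by 0.33 ± 0.14 (edgeR, adjusted p = 0.0478). *Hoxa5* fell without overlap, by 1.18 ± 0.26 (edgeR, adjusted p = 0.00139), and *Hoxa9* fell by 0.60 ± 0.18 (adjusted p = 0.0105). *Hoxa11*, the lower-limb paralogue, and *Hoxa13*, the digit paralogue, did not pass the test, with -0.11 ± 0.33 and 0.74 ± 0.44.

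The smaller rises depended on the scaling. With total counts in place of TMM, the median of all genes shifted by -0.93 to 2 wks, and 3 Hox genes were higher and 19 lower. The 3 were *Hoxc9*, *Hoxc10* and *Hoxc11*, with 1.32, 2.22 and 1.63 on the log2 scale. *Hoxa7*, *Hoxa10*, *Hoxb7*, *Hoxb8* and *Hoxc4* changed sign under it, to between -0.59 and -0.10. After the dependence on the GC content of transcripts was taken out of each library, 4 were higher, the same 3 and *Hoxb6* at 0.80, and 12 were lower.

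Between 2 wks and 7 wks, 1 Hox gene rose and 1 fell among the 32 tested, 6.25%, where 27.5% of all genes tested were called, 13.5% higher and 13.9% lower (edgeR, adjusted p under 0.05). Libraries did not overlap for 2 higher genes, *Hoxa13* and *Hoxc10*, and for 4 lower ones, 6.25% and 12.5%, beside 17.3% and 16.4% of all genes tested. *Hoxa13* was at 0.771, 1.27, 1.49 and 1.68 CPM at 2 wks and at 3.37, 3.01, 3.06 and 3.31 CPM at 7 wks. The ages did not overlap, and it rose by 1.29 ± 0.44 (edgeR, adjusted p = 0.044). *Hoxa4* was at 4.39, 4.57, 1.51 and 1.93 CPM at 2 wks and at 1.10, 1.16, 1.50 and 1.30 CPM at 7 wks, and fell by 1.29 ± 0.39 (edgeR, adjusted p = 0.0267). Mice 1 and 2 at 2 wks were far above the other mice. The same mice stood apart in the summed tendon genes, at 59.1 and 70.7 CPM against 359 and 383, and in the red blood cell genes, at 477 and 756 CPM against 146 and 148, whose part in the *Hoxa4* values was not tested. Not every list set them apart. The adipocyte genes were at 456 and 434 CPM against 491 and 426, and the endothelial genes at 824 and 762 CPM against 923 and 782. Both calls were lost when single libraries were left out. *Hoxa13* did not pass with any 1 of the 8 libraries at 2 wks and 7 wks left out (adjusted p = 0.0528 to 0.130), and *Hoxa4* did not pass without mouse 1 or 2 at 2 wks or without mouse 1, 2 or 4 at 7 wks (adjusted p = 0.0584 to 0.0921). *Hoxc10* was higher in each mouse at 7 wks than in each at 2 wks, but the increase of 0.70 ± 0.31 did not pass the test (edgeR, adjusted p = 0.108). The 8 HoxB genes tested had log2 fold changes between -0.77 and -0.42, and 0 of them passed.

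Over the whole span from E18.5 to 7 wks, 7 Hox genes were higher and 13 lower among the 32 tested, where 71.4% of all genes tested were called, 34.3% higher and 37.1% lower (edgeR, adjusted p under 0.05). Libraries did not overlap for 6 genes that were higher and 10 that were lower, beside 30.2% and 33.3% of all genes tested. All 6 tested HoxD genes fell, and HoxC again had 4 genes higher and 0 lower. *Hoxc10* was 14.5-fold higher, a log2 fold change of 3.86 ± 0.34 (edgeR, adjusted p = 3.55e-07). *Hoxc9* and *Hoxc11* were higher by 2.70 ± 0.36 and 2.50 ± 0.40 (edgeR, adjusted p = 1.38e-05 and 6.42e-05). *Hoxa13* was at 1.27, 1.21, 0.219 and 0.449 CPM at E18.5 and passed the test over this span with a rise of 2.02 ± 0.45 (edgeR, adjusted p = 0.00106). *Hoxb6*, *Hoxa10* and *Hoxc4* were the other 3 that rose, by 1.06, 0.84 and 0.81. *Hoxd10* was 11.5-fold lower (log2 fold change -3.53 ± 0.52, edgeR, adjusted p = 3.73e-05), and *Hoxd8* fell by 1.62 ± 0.18 (adjusted p = 2.85e-06). Falls that passed over the whole span and in neither interval alone were those of *Hoxb3*, *Hoxb9* and *Hoxd4*, by 1.03, 1.11 and 0.63. Scaled to the total count, 3 Hox genes were higher and 26 lower, and *Hoxa10*, *Hoxb6* and *Hoxc4* turned to -0.43, -0.22 and -0.47.

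The change before 2 wks differed from the change after 2 wks in 8 of the 32 Hox genes, 25.0%, beside 38.4% of all genes tested (edgeR, contrast of the intervals, adjusted p under 0.05). For *Hoxc9*, *Hoxc10* and *Hoxc11* the difference was 1.85 ± 0.57, 2.47 ± 0.52 and 2.60 ± 0.63 on the log2 scale (edgeR, adjusted p = 0.0216, 0.00274 and 0.00604). Without 1 library the count ranged from 3 to 12, with 3 without mouse 4 at 2 wks, 4 without mouse 1 at 2 wks, 5 without mouse 1 or mouse 2 at 7 wks and 12 without fetal mouse 2.

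Ratios between Hox genes were taken between their levels in CPM per kilobase, and do not depend on the scaling of the libraries. At position 10, the ratio of *Hoxc10* to *Hoxa10* lay between 0.416 and 0.760 in the fetal mice. It lay between 2.93 and 3.74 in mice aged 2 wks and between 3.85 and 6.26 in mice aged 7 wks. The 3 ages did not overlap. The ratio of *Hoxd10* to *Hoxa10* went from 0.119 to 0.158 at E18.5 to between 0.00828 and 0.0186 at 2 wks. At position 11, *Hoxc11* to *Hoxa11* went from between 0.238 and 0.364 to between 1.77 and 2.19. At position 9, *Hoxc9* to *Hoxa9* went from between 0.0558 and 0.195 to between 0.717 and 0.783. Each of these changes to 2 wks had a two-sided exact permutation p of 0.0286, the smallest that 4 mice against 4 allow, and a Benjamini-Hochberg adjusted p of 0.0582 over the 57 ratio comparisons made, which misses 0.05. In all, 8 of the 16 ratios between paralogues of positions 4, 9, 10 and 11 reached that p at 2 wks, among them 1 of 6 at position 4, *Hoxd4* to *Hoxc4*. The other 8 overlapped between the ages, such as *Hoxb4* to *Hoxa4*, *Hoxb9* to *Hoxa9* and *Hoxd9* to *Hoxa9* (exact permutation p = 1, 0.857 and 0.571). At position 13, *Hoxa13* to *Hoxa11* within HoxA was 0.0848 to 0.208 at E18.5 and 0.451 to 0.599 at 7 wks.

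**Figure D2:**
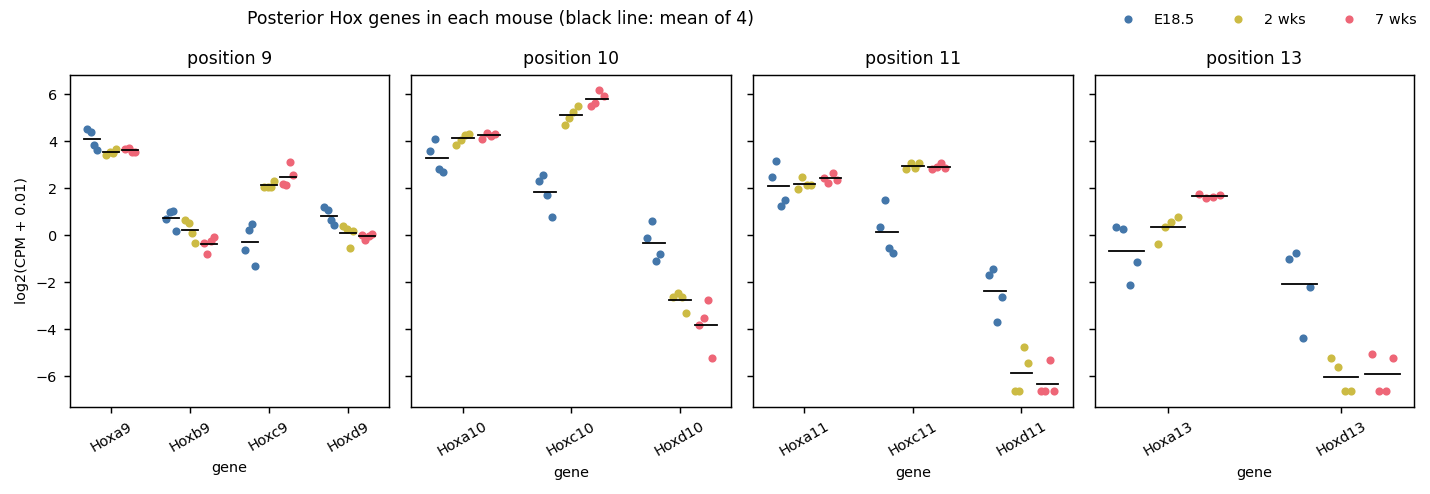
Posterior Hox genes of positions 9, 10, 11 and 13 in each mouse, as log2 of CPM plus 0.01, with E18.5 in blue, 2 wks in yellow, 7 wks in red and the mean of 4 mice as a black line. *Hoxc9*, *Hoxc10* and *Hoxc11* rise and HoxD genes at positions 10, 11 and 13 fall, *Hoxd13* from 221 fetal counts to 2 at each later age. *Hoxb13* and *Hoxc13* are not drawn.

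The makeup of the summed Hox level also differed between ages. The sum of CPM per kilobase over the 39 genes ranged over the mice from 32.4 to 39.9 before birth, from 49.7 to 61.2 after 2 wks and from 55.8 to 73.2 after 7 wks, and the order of the ages reversed under total-count scaling (means of 61.7, 47.4 and 43.1). Shares of the sum do not depend on that scaling. HoxC made up between 11.9% and 21.5% before birth, between 44.3% and 55.1% after 2 wks and between 58.3% and 66.0% after 7 wks, and *Hoxc10* alone 5.09% ± 2.11, 31.5% ± 5.07 and 44.3% ± 4.07 (SD, n = 4). HoxD went from 18.2% to 26.9% at E18.5 to between 5.99% and 8.29% and then between 3.90% and 5.21%. Genes of positions 9 to 13, *Hoxc10* among them, made up 25.6% to 53.6%, then 55.0% to 65.8%, then 70.7% to 76.2%. The mean share of this group was 36.8%, 61.6% and 73.4%. *Hoxc10* alone took 5.09%, 31.5% and 44.3% of the sum, a rise no smaller than that of the whole group. Genes of positions 1 to 3 stayed the smallest share, at 3.49% to 9.03% at E18.5 and at most 3.08% later.

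**Figure D3:**
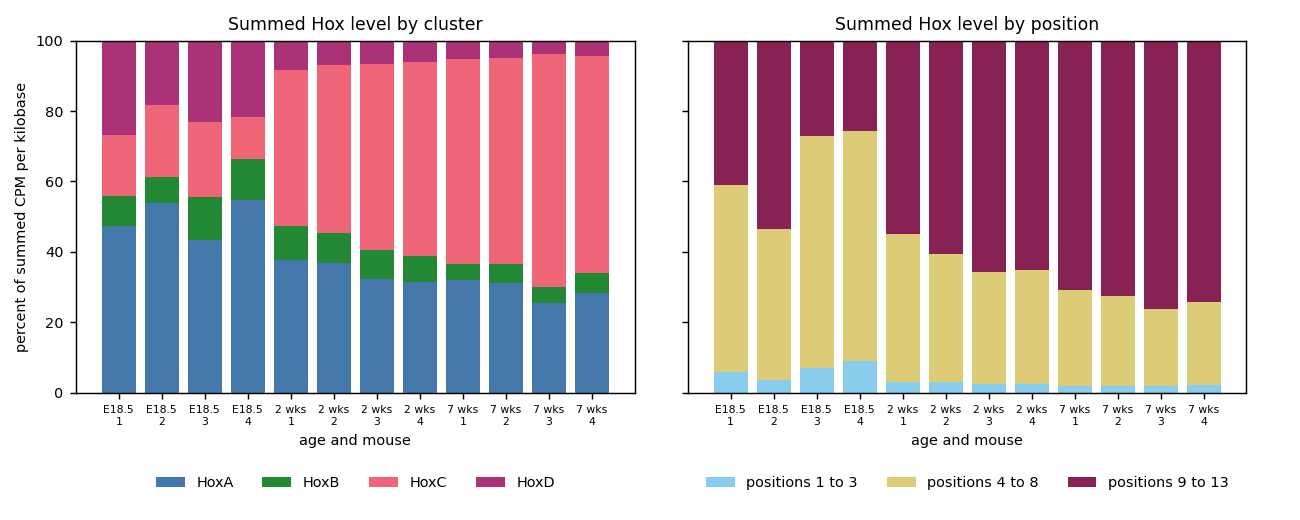
Share of the summed Hox level (CPM per kilobase) in each of the 12 libraries, stacked by cluster on the left and by position on the right. The HoxC part widens from at most 21.5% at E18.5 to at least 58.3% at 7 wks, and the HoxD part narrows from at least 18.2% to at most 5.21%.

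The 4 fetal libraries differed from each other along the clusters. The median range over the tested Hox genes, as the log2 ratio of the highest to the lowest library, was 1.28 among the fetal mice, 0.58 among those aged 2 wks and 0.68 among those aged 7 wks. Over the count table as a whole, pairs of libraries also differed most at E18.5. Their chi-square per degree of freedom, which grows with depth, was 166 to 524 there, 31.2 to 332 at 2 wks and 81.8 to 343 at 7 wks. Whether the fetal spread is particular to Hox genes was not tested. Fetal mouse 2 was above the mean of its age for 11 of 11 posterior genes and for 0 of 6 anterior genes. Fetal mouse 4 was the reverse, above the mean for 0 of 11 posterior genes and for 6 of 6 anterior genes. Mouse 1 was above it for 9 of 11 posterior genes and mouse 3 for 2 of 11. Genes read in the same library are not independent observations. *Hoxc8* was at 4.63 CPM in fetal mouse 3 and at 0.917 to 2.00 CPM in the other 3.

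**Figure D4:**
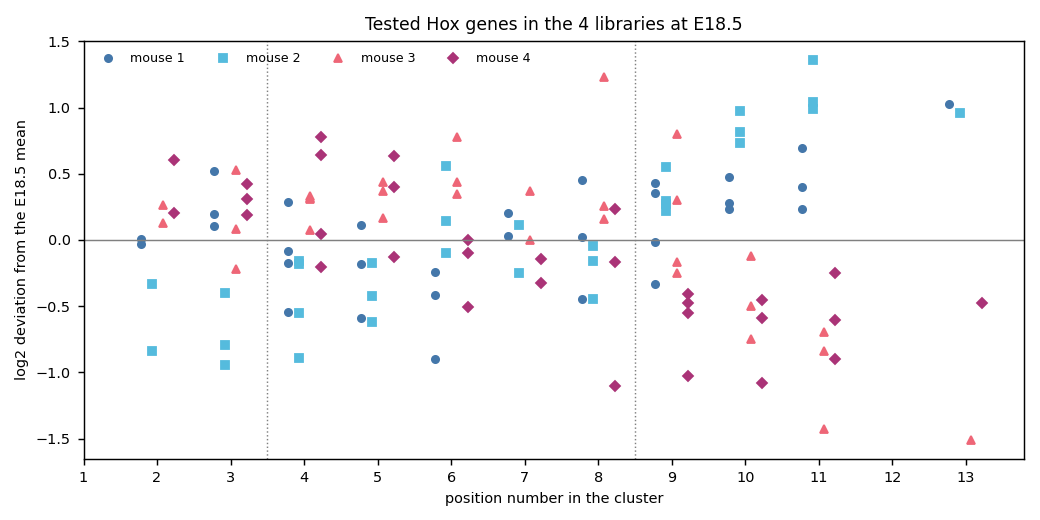
Log2 deviation of 31 tested Hox genes from their mean at E18.5, by position number, in the 4 fetal libraries (1 symbol per mouse). Mouse 2 (squares) lies above 0 for 11 of 11 genes at positions 9 to 13, and mouse 4 (diamonds) for 0 of 11.

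Some marker lists separated fetal mice 1 and 2 from fetal mice 3 and 4, and others did not. The macrophage genes, for example, summed to 210, 206, 228 and 182 CPM in mice 1 to 4. The red blood cell genes summed to 242, 640, 1026 and 599 CPM. The 6 adipocyte genes summed to 235 and 182 CPM in fetal mice 1 and 2 and to 1980 and 2765 CPM in mice 3 and 4. The 7 genes of cartilage and bone summed to 66.5 and 157 CPM in mice 1 and 2 and to 29.5 and 26.6 CPM in mice 3 and 4, and the 6 tendon genes to 435 and 413 against 160 and 144 CPM. The epidermis genes, 6 of which were matched, reached 49.9 CPM in mouse 2 and 1.73 to 7.59 CPM in the others. None of these lists had a gene at 0 at E18.5. Their part in the Hox differences was not tested. With each fetal library left out in turn, 8 to 10 Hox genes were called higher and 8 to 10 lower at 2 wks.

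Marker lists also moved with age. The 7 muscle fibre genes, all higher at 2 wks, summed to between 8920 and 16584 CPM before birth, between 130477 and 157314 CPM after 2 wks and between 150826 and 182688 CPM after 7 wks. Skeletal muscle fibre genes were thus counted in all 12 libraries, but this list cannot tell the TA from other skeletal muscles. The 8 fibroblast genes, of which 4 were lower and 1 higher at 2 wks, summed to 6363 to 12797, then 4615 to 6390, then 1025 to 4304 CPM. The 7 genes of cartilage and bone, 5 of them lower at 2 wks, summed to 26.6 to 157 CPM at E18.5 and to at most 16.8 CPM later. The adipocyte genes, 5 of 6 lower at 2 wks, summed to 182 to 2765, then 426 to 491, then 312 to 417 CPM. The endothelial genes, 4 of 6 higher at 2 wks, and those of smooth muscle and pericytes, 5 of 6 higher, had no gene lower at that age. At 2 wks against E18.5, 1 of 6 satellite cell genes was higher and 3 were lower. Of the macrophage genes and of the Schwann cell genes 1 was higher and 2 were lower of 6. For the red blood cell genes this was 0 and 2 of 7, and for the tendon genes 0 and 3 of 6. Of all genes tested, 31.5% were higher and 34.2% lower at 2 wks. From 2 to 7 wks, 2 muscle fibre genes and 1 epidermis gene were higher, and no gene of the other lists. Lower were 5 red blood cell genes and 4 each of the fibroblast, macrophage and Schwann cell lists. So were 3 each of endothelium and of cartilage and bone, 2 of satellite cells and 1 of smooth muscle and pericytes. Of all genes tested, 13.5% were higher and 13.9% lower in that interval. In bulk tissue, fewer cells of a type and less RNA per cell cannot be told apart, and the part of these shifts in the Hox changes was not tested.

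Factors that set limb type were read beside the Hox genes. *Tbx4*, which marks the hindlimb, lay between 2.42 and 7.98 CPM in the fetal mice, then between 2.43 and 2.85 and then between 1.78 and 2.97 CPM, and did not pass the test between E18.5 and 2 wks (edgeR, adjusted p = 0.0692), but fell over the whole span by 0.78 ± 0.32 (adjusted p = 0.0425). *Tbx5*, which marks the forelimb, had 543 to 1037 counts in the fetal libraries and 1 to 8 in the later ones. It fell by 6.49 ± 0.50 on the log2 scale (edgeR, adjusted p = 2.63e-07). The ratio of *Tbx4* to *Tbx5* counts was 1.10, 1.33, 1.10 and 0.856 in the 4 fetal mice, and 34.1 to 197 at 2 wks and 38.2 to 142 at 7 wks. *Pitx1*, a hindlimb factor upstream of *Tbx4*, lay between 0.0693 and 0.811 CPM at E18.5 and did not pass the test in any comparison. *Tbx5* is also a heart gene. The 6 heart markers, a list added after *Tbx5* was seen, summed to 0.270 to 0.446 CPM at E18.5, with *Nkx2-5* at 0. They summed to 1.38 to 2.27 CPM at 2 wks and 1.71 to 2.51 CPM at 7 wks, again with *Nkx2-5* at 0. The 6 neuron markers summed to 5.11 to 6.96 CPM at E18.5, 7.80 to 10.3 CPM at 2 wks and 9.27 to 12.2 CPM at 7 wks. Whether the fetal pieces held tissue other than the labelled muscle, and the part of this in every Hox difference between E18.5 and the later ages, was not tested.

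Cofactors of Hox proteins and other limb factors were counted beside the 31.5% of all genes tested that were higher and the 34.2% that were lower at 2 wks. Of the 9 TALE homeodomain genes, which encode the Pbx, Meis and Pknox partners of Hox proteins on DNA, 1 was higher and 5 were lower at 2 wks, with a median of -0.46 beside -0.09 over all genes tested. *Meis2*, a mark of the proximal limb, fell from 882 to 2408 counts in the fetal libraries to 10 to 31, a log2 fold change of -5.25 ± 0.37 (edgeR, adjusted p = 1.1e-07). *Meis1* fell by 1.33 ± 0.17 (edgeR, adjusted p = 1.63e-05), and *Pknox2* rose by 0.96 ± 0.14 (adjusted p = 3.91e-05). Of 20 tested limb patterning factors, 2 were higher and 12 lower at 2 wks, with a median of -0.90. Besides *Tbx5*, the largest changes were those of *Lbx1*, a factor of migrating muscle precursors, which rose by 2.95 ± 0.26, and of *Shox2* and *Alx4*, limb mesenchyme factors, which fell by 2.68 ± 0.28 and 2.20 ± 0.36. Of the 6 upstream and linked homeobox genes, *Gbx2* alone had counts enough to be tested, and it was higher at 2 wks. It was at 0.0192 ± 0.0108 CPM at E18.5 and at 0.246 ± 0.0775 CPM at 2 wks, and is named although it was below the level set for naming.

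Genes around and within the clusters were read against the same background of 31.5% higher and 34.2% lower. Of the 20 tested among the 24 nearest protein-coding neighbours, 6 were higher and 10 lower at 2 wks, in HoxC 2 and 3 of 6, and in HoxD 2 and 2 of 5. *Atp5mc1*, a gene of the ATP synthase c subunit beside HoxB, rose by 3.42 ± 0.30 (edgeR, adjusted p = 7.98e-07). Of 14 tested non-coding genes in the clusters, 2 were higher and 5 lower. *Gm53* and *Mir196a-1* in HoxB fell from 652 and 181 counts over the fetal libraries to 9 and 5 at 2 wks, with log2 fold changes of -4.85 ± 0.65 and -3.88 ± 0.75 (edgeR, adjusted p = 2.49e-05 and 0.000453). *Hoxb9*, the Hox gene nearest to *Mir196a-1*, did not pass the test in that interval, with -0.48 ± 0.28. *Mir10a* did not pass the test, with -0.25 ± 0.52, and *Mir10b* had 28 counts in the 12 libraries. *Hotair*, a long non-coding RNA of HoxC, rose with the posterior HoxC genes by 1.30 ± 0.37 (edgeR, adjusted p = 0.00757), with overlapping libraries. *Hoxaas2* in HoxA fell by 2.49 ± 0.27 (edgeR, adjusted p = 3.85e-06), and *Hoxa11os*, which lies opposite 43.6% of the exon length of *Hoxa11*, rose by 1.19 ± 0.43 (adjusted p = 0.0252).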

How the data were processed

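RNA of TA muscles was isolated with TRI Reagent and sequenced from stranded poly(A) libraries (TruSeq Stranded mRNA) as 100 bp paired-end reads. The labels name mm10 and the paper's methods GRCm39. Coordinates printed here are RefSeq's on GRCm38.p6. The submitters' processing notes name bcl2fastq 2.17.1.14, cutadapt 1.10, STAR 2.5.3a and HTSeq 0.6.1p1. Values deposited by the authors are whole read counts for each Ensembl gene, without normalization; the annotation and the strand setting of the counting are not given in the sources used here, so reads in overlapping or antisense genes may have been dropped or assigned to either gene.

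A model with age as its sole term was fitted to all 12 libraries together in edgeR 4.0.16, after TMM normalization, and contrasts were tested by quasi-likelihood. R 4.3.3 and limma 3.58.1 were used. filterByExpr left 19276 of 55450 genes, and p-values were adjusted over these (Benjamini-Hochberg, threshold 0.05). The biological coefficient of variation was 0.279. With 7026 to 21408 counts on Hox genes per library, counting error was small for the abundant members and large for those with under 100 counts. Lengths, exon overlaps and names came from GENCODE vM39, which held 51477 of the identifiers. The TALE, limb and marker lists and the rule for naming genes (Hox genes past the threshold, at most 12 per comparison with full statistics; at most the 4 largest changes of any other list whose mean log2 CPM reached 0; of neighbours and non-coding genes the 4 largest and those that overlap a named Hox gene; *Tbx4*, *Tbx5* and *Pitx1* always) were written with earlier results of these data known, as were the members. Marker lists for heart and neuron were added after *Tbx5* was seen.

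Alternatives were other scalings, DESeq2 1.42.0, other filters, a log2 fold change beyond 1 (glmTreat), the 8 libraries of the ages compared, the replicate number as a block, removal of the trend over GC content, and each library left out. No 2 libraries of 1 age were copies, since each of the 18 pairs differed beyond sampling noise. Replicate numbers name different mice. Some genes that entered the fits and counts are not reported here by name. The code of the fit was run on simulated counts in which a small set of genes changed at 2 wks only. These data differ from that setting, so the run checks the code and not the fit to these libraries. Python 3.11.15, pandas 2.3.3, scipy 1.17.1 and matplotlib 3.10.9 were used.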

Additional observations from a re-analysis of the deposited data

Results flagged for a closer look

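For 8 Hox genes, of which 7 are given, the change from E18.5 to 2 wks differed from the change from 2 wks to 7 wks, by a test of the difference itself (edgeR's quasi-likelihood test, Benjamini-Hochberg adjusted p under 0.05). These were 25.0% of the 32 Hox genes tested, a smaller share than the 38.4% of all genes tested, and the count changed when single libraries were left out. The difference on the log2 scale, first interval minus second, was 2.47 for *Hoxc10*, 2.60 for *Hoxc11*, 1.85 for *Hoxc9*, 1.98 for *Hoxb6*, 1.54 for *Hoxb8*, 1.48 for *Hoxb5* and 1.15 for *Hoxb7*.

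A single library stood far from the other 3 of its age (Dixon's 95% limit for 4 values) in 2 of the 96 sets examined, while chance gives about 1 in 20, or 4.8. *Hoxc9* was at 4.92 CPM in mouse 4 at 2 wks and at 4.13 to 4.21 CPM in the other 3. *Hoxd11* was at 0.0153 CPM, a single count, in mouse 3 at 7 wks and at 0 in the other 3.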

How the results depend on the processing

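Named Hox genes gave 1064 values under the alternatives, of which 899 kept their direction and their side of the threshold, 155 kept their direction and lost the call, and 10 reversed. Scaled to the total count, *Hoxa7*, *Hoxa10*, *Hoxb7*, *Hoxb8* and *Hoxc4* turned to -0.59, -0.22, -0.23, -0.10 and -0.19 at 2 wks, and *Hoxa10*, *Hoxb6* and *Hoxc4* to -0.43, -0.22 and -0.47 at 7 wks against E18.5. *Hoxa7* turned to -0.14 when the 20 most abundant and the mitochondrial genes were left out of the total, and to -0.11 without the GC trend. Hox genes higher at 2 wks (10) became 3 under total-count scaling and 4 under the reduced total, glmTreat and GC correction, and those lower (9) became 19 and, with glmTreat, 4. From 2 to 7 wks (1 higher, 1 lower), total-count scaling gave 0 and 11, the reduced total 0 and 10, upper-quartile scaling 2 higher, DESeq2 2 lower, at least 10 counts 3 lower, glmTreat 0 and 0, and the 8 libraries alone 2 and 4. From E18.5 to 7 wks (7 higher, 13 lower), total-count scaling gave 3 and 26, the reduced total 4 higher, glmTreat 4 and 6, and GC correction 4 higher. The 8 genes whose intervals differed became 4 without a filter and 3 with glmTreat. Cluster neighbours and non-coding genes (23, 7 and 25 called) became 11, 0 and 15 with glmTreat, and 3 of the 7 with at least 10 counts. The factor lists (21, 6 and 25 called) became 11, 0 and 16 with glmTreat, and the 6 became 12 under both total scalings and 11 in the 8 libraries alone. The summed Hox level (37.0, 54.4 and 62.8 CPM per kilobase) became 61.7, 47.4 and 43.1 under total-count scaling, and 44.2 and 61.9 at the first 2 ages by the longest coding transcript. *Hoxc10* became 3.21 at E18.5 and 19.2 at 7 wks under total-count scaling. Without a library, the Hox counts from 2 to 7 wks ranged from 0 to 2 in each direction, the interval difference from 3 to 12, neighbours and non-coding genes from 2 to 7 and the factor lists from 3 to 8 in that interval.

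With the replicate number as a block, 9 Hox genes were higher and 9 lower at 2 wks, and from 2 to 7 wks 0 were higher and 1 lower. Correlations between same-numbered libraries of different ages ran from -0.264 to 0.480, and 5 of 12 exceeded 0.1. Their median was 0.025, beside 0.020 for libraries with different numbers. The sample titles do not say what the number stands for. Genes with a few counts after birth (*Hoxd11* to *Hoxd13*) have falls whose size is bounded by depth.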
